A study of Canis lupus familiaris with 186 samples.

Results

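Of the 37952 genes in the deposited table, 7 that encode or build cell surface targets of immunotherapy in osteosarcoma were followed across the primary tumors of 186 dogs: CD276, B4GALNT1, ST8SIA1, CSPG4, GPNMB, FAP and LRRC15. They were picked by name, and each was matched by symbol to 1 row of the table. The tumors were biopsied before treatment from pet dogs enrolled in the clinical trials COTC021 and COTC022, with 93 dogs from each, and mRNA was sequenced in bulk with 1 library per dog. Per the paper, every dog then had the limb amputated and was randomized to carboplatin alone (93 dogs) or with rapamycin (93 dogs). The paper does not state how these arms map to the trials, which also hold 93 dogs each. Arm was not a term under that name in any model here. Trial was a term or stratum in most models, and whether it stands for arm cannot be told. The GS-1 signature of 27 genes, in which immune genes such as C1QB and CD53 are found, divides the dogs into a favorable prognosis (FP) cluster of 58 dogs and a poor prognosis (PP) cluster of 128, and none of the 7 antigens is among its genes. Disease-free interval (DFI) ended in an event in 143 dogs and overall survival (OSv) in 124.

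CD276, or B7-H3, is a B7 family checkpoint molecule found on many solid tumors. The ganglioside GD2 is a glycolipid and has no gene of its own. ST8SIA1 (GD3 synthase) adds the second sialic acid to GM3, and B4GALNT1 (GM2/GD2 synthase) then converts GD3 to GD2, so both enzymes are needed to make it. CSPG4 is a membrane proteoglycan of pericytes, mesenchymal progenitors and several tumors. GPNMB is a glycoprotein of macrophages, osteoclasts, osteoblasts and melanocytic cells and is the target of an antibody-drug conjugate. FAP is a serine peptidase of activated fibroblasts, and LRRC15 is a leucine-rich repeat protein of activated, TGF-beta-responsive fibroblasts that some osteosarcomas also carry. Bulk RNA reads all of these cells at once, so fewer cells of a type and less RNA per cell cannot be told apart.

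On the canine assembly UU_Cfam_GSD_1.0, CD276 (RefSeq gene 487638) lies at chr30:37403877-37431620 and CSPG4 (487658) at chr30:38897574-38936898, 1465954 bases apart. B4GALNT1 (481129) lies at chr10:2057788-2110916, GPNMB (482355) at chr14:36998735-37025688, ST8SIA1 (477672) at chr27:21502984-21653212, LRRC15 (488041) at chr33:32105985-32118522 and FAP (608176) at chr36:7874009-7946310. All are annotated as protein-coding, and the reads counted for each were summed over the whole gene.

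Library totals ranged from 6587634 to 27420867 counts, with a median of 10797171. For 50 libraries the deposited column name has a doubled separator. Their median total was 19440456 counts, against 9851682 in the other 136, and they are called the deeper libraries. COL1A1, the main collagen of bone, was at 1107 CPM (counts scaled to the library total) or more in 185 libraries and lower in 1, an FP tumor from COTC022. That library held 328 CPM of COL1A1 against a cohort median of 20451, 0.696 CPM of the bone phosphatase ALPL against 695, and 880 CPM of the T cell gene CD3E against 2.90. It also had the lowest CD276 (32.1 CPM), CSPG4 (6.90 CPM) and FAP (3.48 CPM) and the highest GPNMB (3687 CPM) of the 186. The cluster differences of these genes and several of their correlations are therefore given with and without it. In 11 libraries, 9 FP with this one among them and 2 PP, ALPL and the bone sialoprotein gene IBSP were both more than 10 times lower than their cohort medians.

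CD276 was present in every tumor and varied least of the 7. Its lowest, median and highest values were 32.1, 158 and 474 CPM, and no library held fewer than 507 counts of it. Its SD of 0.62 on the log2 CPM scale was larger than that of 51.0% of the 13422 genes left after the filter on low counts, so CD276 varied about as much as the middle gene. A high value was defined as more than 4 times the gene's own cohort median. No dog had one for CD276, which allows a share of up to 1.61% (3 dogs of 186), and 5.91% of dogs (11 of 186) were above 2 times the median.

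CSPG4 and FAP were also found in every tumor, at broader ranges. CSPG4 ran from 6.90 to 476 CPM with a median of 97.4, and 2.15% of dogs (4 of 186, Wilson 95% interval 0.839 to 5.40) were above 4 times that median. FAP ran from 3.48 to 504 CPM with a median of 126, and no dog exceeded 4 times it. Between the 10th and the 90th percentile of dogs, CSPG4 spanned 6.40-fold and CD276 3.14-fold.

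GPNMB had a long upper tail. It was read in every dog, from 7.19 to 3687 CPM with a median of 133, and 8.06% of dogs (15 of 186, interval 4.95 to 12.9) exceeded 4 times the median. Of these 15 dogs 13 were FP. High GPNMB was therefore found in 22.4% of FP dogs (13 of 58, interval 13.6 to 34.7) and 1.56% of PP dogs (2 of 128, interval 0.429 to 5.52).

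LRRC15 was the most variable of the 7, with an SD of 2.81 on the log2 scale that exceeded that of 99.5% of genes. It was at 0 counts in 15 dogs and reached 396 CPM in another, around a median of 6.40 CPM. At least 10 counts were found in 142 of 186 dogs (76.3%, interval 69.7 to 81.9). Of all dogs 22.6% (42 of 186) were above 4 times the median and 11.8% (22 of 186) above 8 times, so the spread ran from tumors with no LRRC15 read to tumors far above the median.

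The enzymes of GD2 synthesis were the least read. ST8SIA1 ran from 0.206 to 65.4 CPM with a median of 4.48, and 168 dogs (90.3%) had at least 10 counts. B4GALNT1 ran from 0 to 28.7 CPM with a median of 0.444, 32 dogs had no count, and 65 dogs (34.9%, interval 28.5 to 42.0) had at least 10. Zero counts allow up to 3 counts, which is 0.455 CPM in the smallest library and 0.109 in the largest. At least 10 counts of B4GALNT1 were found in 54.0% of the 50 deeper libraries and 27.9% of the other 136. The median level was also higher in the deeper libraries, 0.558 against 0.384 CPM, and the part of depth in this share was not tested.

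Both enzymes reached 10 counts in 61 of 186 dogs (32.8%, interval 26.5 to 39.8). ST8SIA1 alone did so in 107 dogs, B4GALNT1 alone in 4 and neither in 14. In the deeper libraries the share with both was 50.0%, against 26.5% in the others. No relation between the levels of the 2 enzymes was detectable across dogs, with r = 0.01 (Spearman rho = 0.02, permutation p adjusted over 21 pairs of antigens = 0.874 and 0.875). B4GALNT1 was above 4 times its median in 34 dogs and ST8SIA1 in 29, and 8 dogs were high in both.

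Taking the 7 genes together, 95 of 186 dogs were above 4 times the median for at least 1 of them, 71 for 1 gene and 24 for 2 or more. The remaining 91 dogs were high for none. High values were most common for LRRC15 (42 dogs), B4GALNT1 (34) and ST8SIA1 (29), the genes with counts nearest to the limit of detection.

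**Figure D1:**
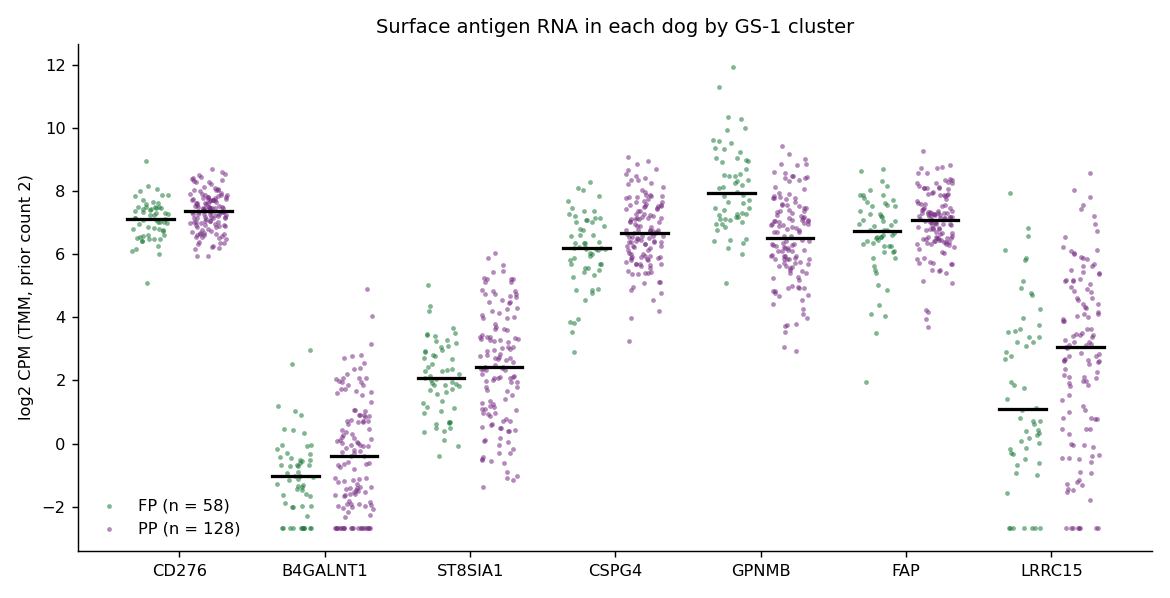
Level of each antigen in every dog on the log2 CPM scale (vertical axis, TMM-normalized, prior count 2), split into FP (green, n = 58) and PP (purple, n = 128); black bars are medians, and points at the bottom have no counts. GPNMB is higher in FP, the other genes overlap widely between the clusters, and levels of different genes cannot be compared since they are not divided by length.

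Each antigen was then set against scores of marker genes, a score being the mean z-score over the markers that passed the filter. The markers were those of osteoblasts, fibroblasts, activated stroma, pericytes, macrophages, osteoclasts, endothelium, T cells, cartilage, muscle, fat, glial or melanocytic cells and proliferation, with the GS-1 genes as the 14th score, giving 98 relations. Benjamini-Hochberg adjusted permutation p-values passed 0.05 in 49 relations by Pearson's r and 42 by Spearman's rho. The smallest p that 100000 permutations can give is 1e-05.

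GPNMB rose with the macrophage markers. Its r with the macrophage score was 0.75 (rho = 0.72, permutation p = 1e-05 for both, adjusted 8.17e-05 and 8.91e-05), and 1.24% of the genes tested had an r at least as high. The value was 0.74 without the 2 dogs farthest from the median score and 0.74 without the library that stood apart. It was 0.64 in COTC021, 0.83 in COTC022, 0.68 among FP dogs and 0.65 among PP dogs. With the T cell score the r of GPNMB was 0.48 (rho = 0.45, adjusted permutation p = 8.17e-05). Beside the osteoclast markers, such as ACP5 and CTSK, the r of GPNMB was 0.04 (adjusted permutation p = 0.604), and beside the osteoblast markers it was -0.40 (adjusted permutation p = 8.17e-05). Without the library that stood apart the r of GPNMB was 0.44 with the T cell score and -0.35 with the osteoblast score. Without the 11 libraries low in ALPL and IBSP these values were 0.41 and -0.26.

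The genes nearest to GPNMB by Spearman's rho over the 186 dogs were VSIG4 (0.85), a complement receptor of tissue macrophages, BPI (0.84), MSR1 (0.82), a macrophage scavenger receptor, TBXAS1 (0.82), the thromboxane synthase, and TREM2 (0.78), a lipid-sensing receptor of macrophages. VSIG4 is a gene of GS-1.

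FAP rose with stroma. Its r was 0.51 with the fibroblast score, which holds DCN, LUM and COL3A1 (rho = 0.44, adjusted permutation p = 8.17e-05), and 0.46 with the activated stroma score (rho = 0.38, adjusted permutation p = 8.17e-05). The r with the fibroblast score was 0.47 without the library that stood apart, 0.45 without the 2 dogs farthest from the median score, 0.45 in COTC021 and 0.59 in COTC022. The r with the activated stroma score was 0.40 without the library that stood apart. With the osteoblast score the r of FAP was 0.04 in all dogs. The nearest genes were COL5A2 (rho = 0.48), FNDC1 (0.47), COL3A1 (0.45), LIMA1 (0.44) and the endothelin receptor EDNRA (0.43), of which COL5A2 and COL3A1 are fibrillar collagens. Both collagen genes lie on chromosome 36, as FAP does, 22988066 and 22938003 bases from it.

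CD276 and CSPG4 rose with the osteoblast score, which holds RUNX2, SP7, ALPL and IBSP. For CD276 the r was 0.43 (rho = 0.36, adjusted permutation p = 8.17e-05) and 2.73% of genes had one at least as high. CD276 also rose with the osteoclast score (r = 0.35, rho = 0.33, adjusted permutation p = 8.17e-05). For CSPG4 the r with the osteoblast score was 0.36 (rho = 0.36, adjusted permutation p = 8.17e-05), and 4.36% of genes had one at least as high. Without the 2 dogs farthest from the median score the r of CD276 and CSPG4 with the osteoblast score were 0.38 and 0.32. Without the 11 libraries low in ALPL and IBSP they were 0.30 and 0.22. CSPG4 also rose with the activated stroma score (r = 0.27, adjusted permutation p = 9.02e-04) and the fibroblast score (r = 0.23, adjusted permutation p = 0.00428). Of all genes 7.96% and 13.4% had an r at least as high with these scores. Without the 11 libraries the r of CSPG4 with them were 0.29 and 0.28, above its r with the osteoblast score. CSPG4 fell as the T cell score rose, with r = -0.40 (rho = -0.29, adjusted permutation p = 8.17e-05). That r was -0.35 without the library that stood apart and -0.26 without the 11 libraries. The r of CSPG4 with the pericyte score was 0.10.

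CD276 and CSPG4, which lie 1465954 bases apart on chromosome 30, were also the most closely related pair of antigens. Their r was 0.46 (rho = 0.42, adjusted permutation p = 2.1e-04 over 21 pairs). Within the trials COTC021 and COTC022 the r was 0.47 and 0.46, the deeper libraries gave 0.57, the rest 0.43, and it was 0.42 without the 2 dogs farthest from the median of CD276. Nearest to CD276 were VASN (rho = 0.54), NCKAP5L (0.49), ADPGK (0.48), CSK (0.47) and TSPAN3 (0.46). Nearest to CSPG4 were MAP1A (0.56), PKD1 (0.55), NGEF (0.53), ITGA11 (0.52) and LAMB2 (0.50).

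The GD2 enzymes and LRRC15 followed the scores less closely. ST8SIA1 had its highest r, 0.30, with the osteoblast score, and B4GALNT1 with the cartilage score (0.31) and proliferation (0.30). An r at least as high was found for 7.14%, 3.77% and 12.2% of genes, in that order. The genes nearest to B4GALNT1 were ROR2 (rho = 0.61), a WNT5A receptor, PITX1 (0.58), ARMH4 (0.58), CPXM1 (0.57) and CRABP1 (0.54), and those nearest to ST8SIA1 were GPRIN3 (0.42), KCTD1 (0.40), PAQR9 (0.39), SPNS2 (0.38) and ADAMTS17 (0.37).

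LRRC15 had r = 0.27 with osteoblast, 0.26 with fibroblast and 0.24 with activated stroma markers (adjusted permutation p = 9.02e-04, 0.00143 and 0.00237). The rho were 0.17, 0.24 and 0.23, and 8.96%, 11.3% and 9.89% of genes had an r at least as high. Without the 11 libraries low in ALPL and IBSP the r of LRRC15 were 0.13, 0.33 and 0.28, lowest with the osteoblast score. Its r of 0.30 with the glial or melanocytic score rests on the 2 genes of that list that passed the filter. Its nearest genes were SDC2 (rho = 0.41), MYO1D (0.39), PXYLP1 (0.37), NT5E (0.36) and ITGA11 (0.36). FAP and LRRC15, both known from activated fibroblasts, had r = 0.20 with each other (rho = 0.18, adjusted permutation p = 0.0234 and 0.0544), and r fell to 0.14 without the 2 dogs farthest from the median of FAP.

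**Figure D2:**
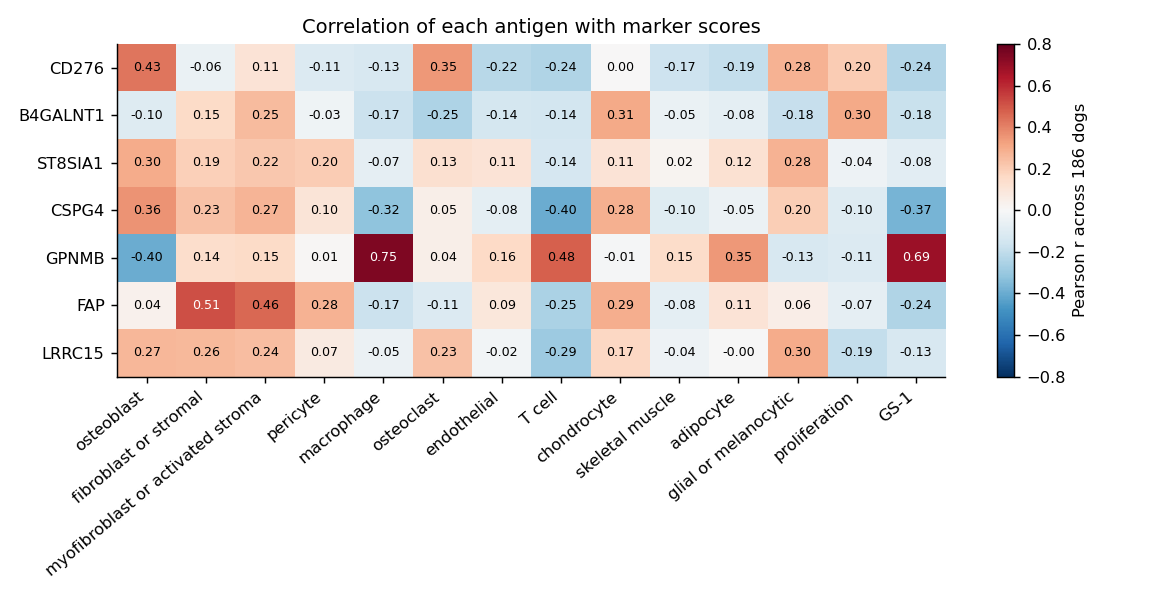
Pearson r across 186 dogs between each antigen (rows) and each marker score (columns); red is positive and blue negative. GPNMB reaches 0.75 with macrophage markers, FAP 0.51 with fibroblast markers and CD276 0.43 with osteoblast markers.

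**Figure D3:**
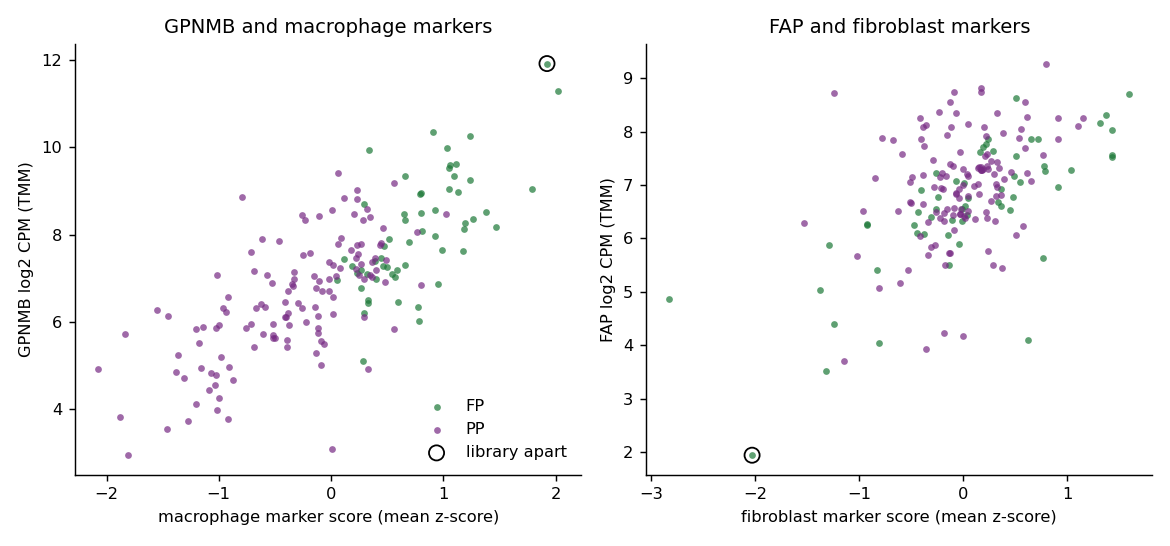
Level of GPNMB against the macrophage score (left) and of FAP against the fibroblast score (right) on the log2 CPM scale, 1 point per dog, green FP and purple PP. The circle marks the library with 328 CPM of COL1A1, which has the highest GPNMB and the lowest FAP.

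The next question was whether the antigens differ between the GS-1 clusters. The low-count filter kept 6 antigens for the limma-voom fit and left out B4GALNT1. Of the 6, 1 was higher and 3 were lower in FP at an adjusted p under 0.05. Across all 13422 genes 37.7% were called, 19.1% higher and 18.6% lower in FP, so a called gene is common in this comparison.

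GPNMB was higher in FP. Its lowest, median and highest values were 36.4, 249 and 3687 CPM in the 58 FP dogs and 7.19, 95.3 and 617 CPM in the 128 PP dogs, and the ranges overlap. The log2 fold change was 1.60 ± 0.22 (SE), or 3.02-fold (adjusted p = 1.51e-10), and 97.7% of genes changed less. It was 1.53 without the library that stood apart (adjusted p = 4.98e-10), 1.26 within COTC021 and 1.93 within COTC022, and the deeper libraries gave 2.28 and the remaining ones 1.46, each past the threshold.

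Macrophage markers were higher in FP as well. Of 10 markers 9 were higher in FP and none lower, beside 19.1% and 18.6% of all genes, and their median log2 difference was 1.97. The paper formed the clusters from GS-1 expression in these same tumors, so this count is not independent of the clustering. The summed level of the 10 markers ran from 757 to 8866 CPM in FP (median 2060) and from 109 to 2350 CPM in PP (median 833). The only marker at 0 in any dog was MARCO, in 2 FP and 11 PP dogs. Median CD163 was 162 CPM in FP and 38.4 in PP, and median C1QA was 235 and 55.3. With the macrophage score as a covariate the log2 fold change of GPNMB was -0.17 (adjusted p = 0.762) and no antigen was called, in a fit that called 3.19% of all genes. That score and the GS-1 score had r = 0.92 with each other, and C1QB is in both lists, and the part of macrophages in the higher GPNMB was not tested apart from the cluster. With the osteoblast score as a covariate, a fit that called 31.6% of genes, GPNMB stayed at 1.35 (adjusted p = 4.3e-08) and was the only antigen called.

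CSPG4 was lower in FP. Its lowest, median and highest values were 6.90, 75.7 and 302 CPM in FP and 10.1, 107 and 476 CPM in PP, with a log2 fold change of -0.57 ± 0.17 (SE), or 1.48-fold lower (adjusted p = 0.00628). It was -0.51 without the library that stood apart (adjusted p = 0.0142) and -0.35 without the 11 libraries low in ALPL and IBSP (adjusted p = 0.129). Of the 10 osteoblast markers 5 were lower in FP and none higher, beside 18.6% and 19.1% of all genes. Their summed levels ran from 940 to 78412 CPM in FP (median 24831) and from 2511 to 115046 CPM in PP (median 25347). SP7, IBSP and DMP1 were at 0 in some FP dogs and PHEX and DMP1 in some PP dogs. All 4 tested T cell markers were higher in FP, beside 19.1% of all genes. The T cell score had r = 0.80 with the GS-1 score, whose genes define the clusters. With the osteoblast score as a covariate the log2 fold change of CSPG4 was -0.36 (adjusted p = 0.0937). With the macrophage score as a covariate it was -0.06 (adjusted p = 0.920). No fit had the T cell score as a covariate, and the part of either list in the CSPG4 result was not tested further.

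CD276 and FAP were lower in FP by smaller steps. Median CD276 was 148 CPM in FP (range 32.1 to 474) and 166 in PP (64.8 to 411), with a log2 fold change of -0.25 ± 0.10 (SE, adjusted p = 0.0338). Median FAP was 107 CPM in FP (3.48 to 365) and 137 in PP (13.1 to 504), with a log2 fold change of -0.42 ± 0.17 (SE, adjusted p = 0.0447). Without the library that stood apart the log2 fold change was -0.21 for CD276 (adjusted p = 0.0689) and -0.33 for FAP (adjusted p = 0.101), so neither passed the threshold. Without all 11 libraries low in ALPL and IBSP the adjusted p was 0.516 for CD276 (log2 fold change -0.09) and 0.0393 for FAP (-0.45), and edgeR's quasi-likelihood fit gave FAP 0.128.

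LRRC15 and ST8SIA1 did not pass the threshold. Median LRRC15 was 1.98 CPM in FP (0 to 258) and 7.77 in PP (0 to 396), with a log2 fold change of -1.06 and a 95% interval from -2.15 to 0.02 (adjusted p = 0.119). Median ST8SIA1 was 3.99 CPM in FP (0.569 to 34.1) and 5.06 in PP (0.206 to 65.4), with a log2 fold change of -0.36 and an interval from -0.92 to 0.21 (adjusted p = 0.335). The quasi-likelihood fit of edgeR gave ST8SIA1 -0.91 (adjusted p = 0.00383). ST8SIA1 was above 4 times its median in 3 of 58 FP dogs and 26 of 128 PP dogs.

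B4GALNT1 was at 10 counts or more in 10 of 58 FP dogs (17.2%, interval 9.64 to 28.9) and 55 of 128 PP dogs (43.0%, interval 34.7 to 51.6). In a fit without the filter its log2 fold change was -0.78 (adjusted p = 0.103). Both GD2 enzymes reached 10 counts in 17.2% of FP dogs (10 of 58) and 39.8% of PP dogs (51 of 128).

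**Figure D4:**
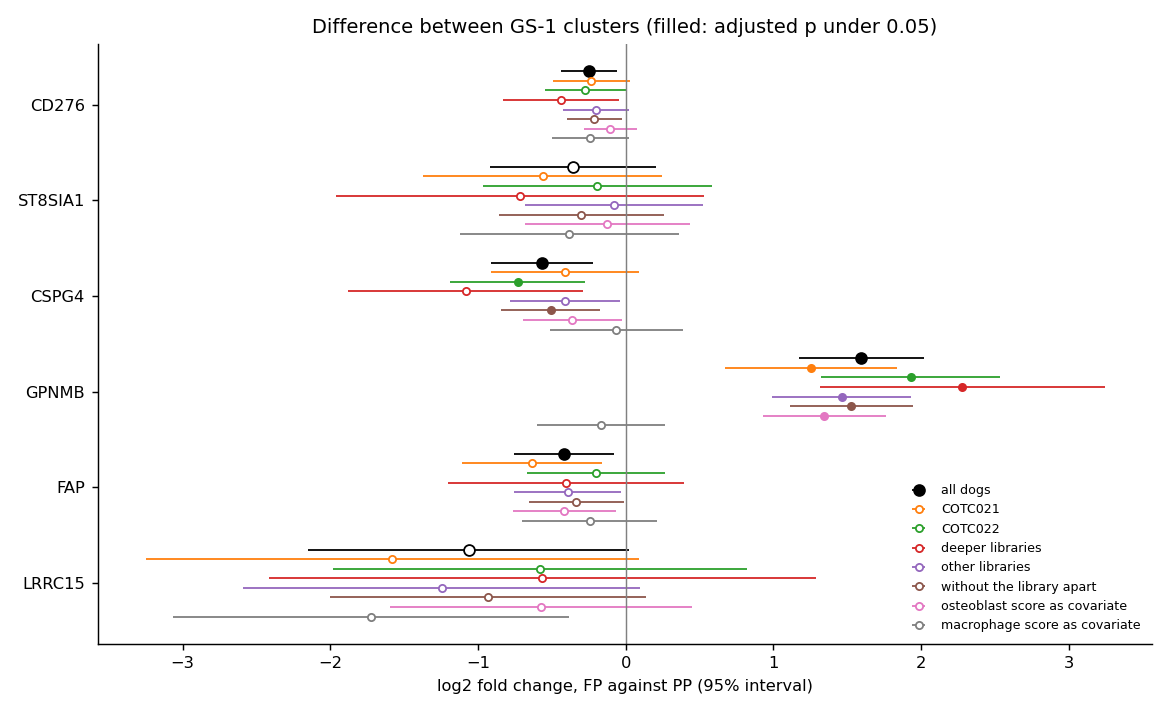
Log2 fold change of FP against PP with its 95% interval for the 6 antigens that passed the filter (rows), in all dogs (black) and in subsets or with covariates (colors); filled points have an adjusted p under 0.05. GPNMB is at 1.60 in all dogs and positive in every subset, and at -0.17 once the macrophage score is a covariate.

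No difference between the trials passed the test for the 6 antigens. Between COTC022 and COTC021 the log2 differences ran from -0.31 for LRRC15 to 0.07 for CSPG4, and limma-voom called none (smallest adjusted p = 0.757, 0 with an unadjusted p under 0.05), against 0.0149% of all genes. Neither edgeR nor DESeq2 called any of them (smallest adjusted p = 0.526 and 0.450, both for LRRC15). Between the deeper and the other libraries none was called either, against 4.73% of all genes, with differences from -0.21 for FAP to 0.23 for GPNMB. Of 12 limma tests of whether the cluster effect on an antigen differed between trials or library groups none was called (smallest adjusted p = 0.757), and none had an unadjusted p under 0.05.

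Genes of the same pathways were set beside the antigens. Between the clusters 37.7% of all genes were called, 19.1% higher and 18.6% lower in FP, and no list was tested as a set. Of 14 genes of the B7 family and its receptors 7 were tested, and 6 of them were higher in FP and none lower. PDCD1LG2 (PD-L2, log2 fold change 2.19) is itself a GS-1 gene, and CD86 (1.91), CD80 (1.73) and CD274 (PD-L1, 1.52), ligands of CD28, CTLA4 or PD-1, were higher too, while the log2 fold change of their relative CD276 was -0.25. Their median was 1.52, against -0.02 over all genes.

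Of 19 tested genes of ganglioside synthesis and breakdown 4 were higher and 4 lower in FP, beside 19.1% and 18.6% of all genes. A4GALT, which makes the globoside Gb3, was higher (log2 fold change 1.41, adjusted p = 5.5e-08), as was UGCG (0.48), the glucosylceramide synthase that starts the pathway. The sialyltransferases ST8SIA5 (-1.28, adjusted p = 2.76e-09) and ST6GALNAC3 (-0.93, adjusted p = 0.00103) were lower.

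Of 11 tested genes of the GPNMB family, MITF factors and lysosomes 5 were higher in FP and none lower. The shares over all genes were 19.1% and 18.6%. LIPA, the lysosomal acid lipase, rose by 1.19 on the log2 scale, TFEB by 0.60, the protease CTSD by 0.49 and LAMP1 by 0.19. The bone-resorption genes CTSK (0.42, adjusted p = 0.152), ACP5 (-0.09) and ATP6V0D2 (-0.04) were not called.

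Of the 22 peptidases and stromal matrix genes set beside FAP 3 were lower and none higher, namely the collagenase MMP13 (-1.19), MMP14 (-0.40) and TGFB1 (-0.38). Of 12 CSPG4 partners FGF2 (0.64) and ITGA3 (0.53) were higher and MMP16 (-0.50) and FGFR1 (-0.46) lower. Of 17 other surface antigens 5 were higher and 4 lower, led by ALCAM (0.73), EPHA2 (-0.67), CD44 (0.59) and ERBB2 (-0.54). The counts of these lists stand beside 19.1% of all genes called higher and 18.6% called lower.

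The last question was whether the level of an antigen went with outcome. Cox models per gene gave the hazard ratio for each SD of the log2 level, stratified by trial. None of the 6 antigens was called for DFI or OSv, and none had an unadjusted p under 0.05. Over all 13422 genes 12.3% were called for DFI (6.38% with a higher and 5.92% with a lower hazard) and 29.3% had an unadjusted p under 0.05. For OSv 2.09% were called (1.07% higher, 1.02% lower), and 21.9% had an unadjusted p under 0.05.

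The DFI hazard ratio was lowest for LRRC15, 0.890 (95% interval 0.760 to 1.04, adjusted p = 0.329). It was 0.947 for GPNMB (0.808 to 1.11), 1.01 for CSPG4 (0.864 to 1.18) and 1.01 for ST8SIA1 (0.847 to 1.19). For FAP it was 1.06 (0.898 to 1.26) and for CD276 1.07 (0.908 to 1.26). Each of these intervals includes 1.

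For OSv, LRRC15 was again lowest at 0.870 (0.732 to 1.03, adjusted p = 0.345) and CD276 highest at 1.14 (0.953 to 1.37, adjusted p = 0.400). GPNMB had 0.949 (0.801 to 1.13), FAP 0.992 (0.831 to 1.19), CSPG4 1.05 (0.882 to 1.24) and ST8SIA1 1.07 (0.890 to 1.29). The GS-1 score itself had a hazard ratio of 0.787 per SD for DFI (0.671 to 0.924, Cox p = 0.00346) and 0.784 for OSv (0.658 to 0.935, Cox p = 0.00672). GPNMB, with r = 0.69 to that score, was nearer to 1 in both, a difference that was not tested. With the GS-1 score as a covariate the hazard ratio of GPNMB lay on the other side of 1, at 1.22 for DFI (0.985 to 1.52, unadjusted Cox p = 0.0684) and 1.25 for OSv (0.982 to 1.58, unadjusted Cox p = 0.0707), and was called in neither.

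B4GALNT1 could be fitted with a lower filter, chosen after the data were seen, that keeps genes with a count in 50% of the libraries or more. Its DFI hazard ratio was 1.20 (1.02 to 1.40), with an unadjusted Cox p of 0.0252 and an adjusted p of 0.131 over 17801 genes, 8.6% of which were called. For OSv it was 1.17 (0.985 to 1.40, adjusted p = 0.319), where 0.742% were called. Over all tested genes of the partner lists 4 were called for a higher and 5 for a lower hazard of DFI. Of 19 ganglioside genes 2 were higher and 1 lower, and of 17 other surface antigens 2 and 1. Of 7 B7 genes 2 were lower, and of 22 genes set beside FAP 1 was lower. Among 12 CSPG4 partners and 11 genes of the GPNMB list there was no call. Among all genes 12.3% were called, 6.38% for a higher and 5.92% for a lower hazard, and the lists were not tested as sets. The hazard was higher with ST6GALNAC3 (1.43, adjusted Cox p = 0.00591), EPHA2 (1.42, adjusted Cox p = 0.00657), ST8SIA5 (1.33, adjusted Cox p = 0.0190) and MCAM (adjusted Cox p = 0.0256). It was lower with CD99 (0.734, adjusted Cox p = 0.0119), NEU3 (0.763, adjusted Cox p = 0.0215), FN1 (0.774, adjusted Cox p = 0.0282), CD86 (0.779, adjusted Cox p = 0.0289) and VSIR (0.789, adjusted Cox p = 0.0317). For OSv only EPHA2 (adjusted Cox p = 0.0424) and CD86 (adjusted Cox p = 0.0455) of these genes were called, where 2.09% of all genes were.

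**Figure D5:**
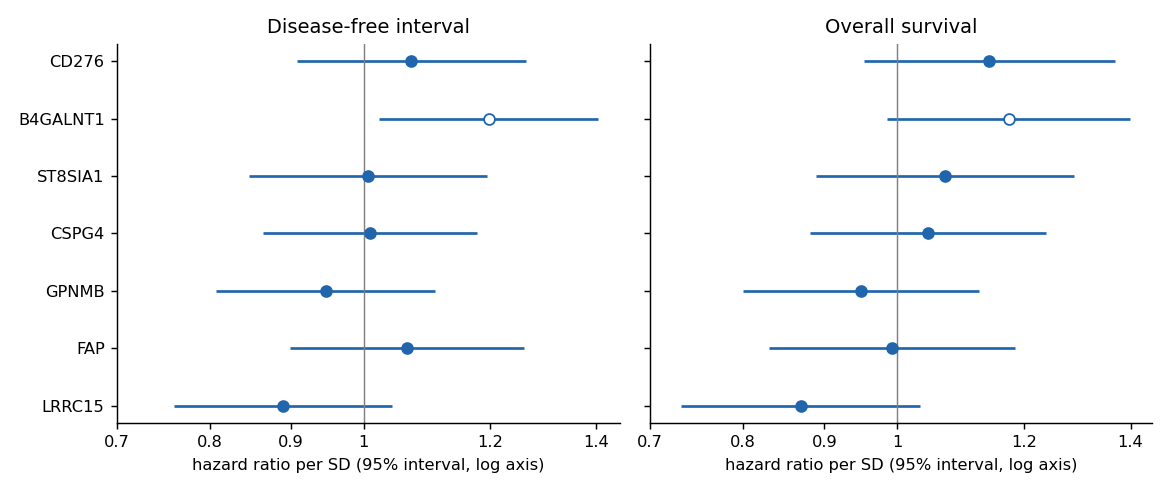
Hazard ratio per SD of the log2 level for DFI (left) and OSv (right) with 95% intervals on a log axis, 1 row per antigen. Filled points passed the main filter and all their intervals include 1, and the open point is B4GALNT1 from the fit with the lower filter, 1.20 for DFI.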

How the data were processed

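The values are expected counts per gene, deposited without normalization by the authors, who trimmed reads with cutadapt, aligned them with STAR 2.7.0f and quantified genes with RSEM 1.3.1, per the labels' processing notes. Libraries were stranded mRNA. Of 198 columns, 186 were used and 12 were not. Clusters, DFI and OSv were joined by dog number from the study's supplementary data. Counts were rounded, and 3.07% of values were not whole. Genes were kept with edgeR's filterByExpr (a minimum count of 10, a proportion of 0.5 and large.n of 5), normalized with TMM (edgeR 4.0.16) and fitted with limma 3.58.1 voom, with cluster and trial in the model, Benjamini-Hochberg over all genes and a threshold of 0.05. Cox models used survival 3.8.3 in R 4.3.3. CPM in the text are counts per library total. Correlations used log2 TMM CPM (prior count 2) and two-sided permutation tests with 100000 resamples in Python 3.11.15 with numpy 2.4.6. On simulated counts for the cluster comparison, over 13398 genes, limma called 99 of 99 genes changed by 4-fold and 8 of 13199 unchanged ones. The antigens, lists and tests were chosen with earlier results of these data known. Named in the text are all 7 antigens, the 5 nearest genes of each and up to 4 called genes per list, by size of change, plus single markers and list members named after their values were seen. No 2 libraries had an r above 0.948 over the genes kept. Floors cover counting error only, and intervals cover variation between dogs. The planned share of dogs with an antigen among the most abundant genes per kb of exon was not computed, since no exon lengths were used here. Figures used matplotlib 3.10.9.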

Additional observations from a re-analysis of the deposited data

Results flagged for a closer look

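The relation of GPNMB with OSv differed between the trials by an interaction test with an unadjusted Cox p of 0.0346. The hazard ratio per SD was 1.16 in COTC021 and 0.796 in COTC022. The adjusted p over all genes was 1.00, so the difference fails the correction. It was 1 of 36 such tests of the 6 antigens, over trials and library groups, with an unadjusted p under 0.05.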

How the results depend on the processing

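GPNMB was called between the clusters under all alternatives except 1, the macrophage score as a covariate, where its log2 fold change reversed to -0.17 (adjusted p = 0.762). Of 6 antigens, 2 were called within COTC022 and 1 within COTC021, the deeper libraries and the others gave 1 each, and the count was 1 with the osteoblast score and 0 with the macrophage score as a covariate. It was 2 without the library lowest in osteoblast score (GPNMB and CSPG4) and 2 without the 11 libraries low in ALPL and IBSP (GPNMB and FAP), against 4 in the main fit. Smaller subsets hold fewer dogs. FAP was also not called by edgeR (adjusted p = 0.128), DESeq2 (0.0990) or without the filter (0.0642). ST8SIA1 was called by edgeR and by DESeq2 (-0.91, adjusted p = 7.05e-04), and LRRC15 with quantile normalization (-1.10, adjusted p = 0.0299), while edgeR and DESeq2 gave LRRC15 -0.59 (adjusted p = 0.262 and 0.204) and leaving out the 11 libraries -0.55 (adjusted p = 0.480). The causes of these changes were not tested. None of the 144 hazard ratios and 60 trial differences under alternatives was called. With the hazards also stratified by library name, LRRC15 had unadjusted Cox p-values of 0.0454 for DFI and 0.0336 for OSv, and without the 11 libraries they were 0.0179 and 0.0227 (adjusted p = 0.103 and 0.171). With the score of highest r in all dogs, an r above 0.3 was reached by 5 antigens, and with those same scores by 2 without the 11 libraries. High values in over 5% of dogs were found for 4 antigens at 4 times the median, 7 at 2 times and 2 at 8 times. The covariate fits, the leaving out of libraries and the lower filter were chosen after seeing the data. The top-quarter and top-tenth shares were not run. No paired analysis was possible because the dogs of the trials share no replicate numbers. At its median of 0.444 CPM, B4GALNT1 lies under the floor of 3 counts in the smallest library, 0.455 CPM.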

Other observations

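CD276 went with genes near it on chromosome 30. Of its 5 nearest genes by Spearman's rho, ADPGK, CSK and TSPAN3 lie on chromosome 30, which holds 2.18% of the 13422 genes that passed the filter (293 genes). Among the nearest genes of CSPG4, MAP1A and ITGA11 also lie on chromosome 30. For FAP, COL5A2 and COL3A1 lie on its chromosome 36, which holds 0.872% of the genes. The remaining antigens shared a chromosome with none of their nearest genes. ADPGK lies 814226 bases from CD276, CSK 859499 and TSPAN3 2242650. The 43 kept genes within 2 Mb of CD276 had a median rho of 0.23 with it (lowest -0.01, highest 0.48), against -0.01 over all genes, and 38 of the 43 were above the upper quartile of all genes, 0.10. The median over genes within 2 Mb was 0.12 for CSPG4 (40 genes), 0.11 for ST8SIA1 (11 genes), 0.08 for B4GALNT1 (79 genes), 0.04 for LRRC15 (28 genes), 0.02 for FAP (9 genes) and -0.06 for GPNMB (19 genes). Of these genes 21, 7, 33, 10, 3 and 6, in the same order, were above the upper quartile of all genes for that antigen. Neighbouring genes are not independent of each other, and DNA copy number was not analysed here.

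FAP and the fibroblast score had r = 0.74 among the 58 FP dogs and 0.33 among the 128 PP dogs, and CSPG4 and the T cell score -0.50 and -0.21. These differences were not tested. The library that stood apart is an FP tumor with the lowest FAP and CSPG4 of all dogs, and the r among FP dogs was not computed without it. Over all dogs, leaving it out moved the r of FAP with the fibroblast score from 0.51 to 0.47. For CSPG4 with the T cell score the r moved from -0.40 to -0.35.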
